A study of Mus musculus with 4 samples.

Results

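Metallothioneins are small cysteine-rich proteins that bind zinc and copper ions in the cell. Their genes are induced through MTF1, a transcription factor that senses free zinc and binds metal response elements, short motifs near the start sites of its targets. Glucocorticoids, the adrenal steroid hormones, also induce *Mt1* and *Mt2*. SLC30A1 carries zinc out of the cell and is itself a target of MTF1, whereas SLC39A14 brings zinc and other divalent metals in. The 5 genes described here, *Mt1*, *Mt2*, *Slc30a1*, *Slc39a14* and *Mtf1*, are among 32287 features counted in 4 single-cell libraries of fetal mouse penis, and were chosen because earlier results on these libraries showed a genotype difference in some of them. Differences between the genotypes in these 5 genes are therefore given as descriptions, with no p-value. Where any of them is said to have passed a threshold, this describes the fit and does not count as a test.

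The penises were collected from male embryos at embryonic day 16.5. In the 2 DTA+ samples, an *Nr5a1*-Cre transgene switched on diphtheria toxin from 1 floxed Rosa allele, to kill the cells in which Cre had acted. By the study's own counts most, but not all, of the targeted cells were lost from ablated penises. The 2 DTA- samples lacked the Cre but carried the same floxed toxin allele, although the sample labels call them WT. *Nr5a1*-Cre is also active in the testes and adrenals by the study's own account, and the adrenals of ablated embryos were lost, so the action of Cre in the penis and in those organs cannot be told apart here. Nothing states whether the 2 samples of a genotype came from separate litters, and the tests measure only the spread between these samples. The tdTomato transcript gave 0 unique molecular identifiers (UMIs, counted RNA molecules) in both DTA- libraries, 3579 in DTA+ 1 and 3140 in DTA+ 2. The libraries thus separate by genotype on it, although the genotype labels do not name this reporter. The study's methods give the ablated mice a floxed tdTomato allele as well. The groups may therefore differ in this allele besides the Cre, and the 2 cannot be told apart here. *Grem1*, a marker of the targeted cells, gave 1804 and 1821 UMIs in the DTA- libraries and 1250 and 652 in the DTA+ libraries. *Scube2*, another such marker, gave 194 and 192 against 150 and 71. These counts are not scaled for depth, and DTA- 1 was the deepest library (73577028 UMIs in all, against 53654435 in DTA- 2, 50794318 in DTA+ 1 and 50779551 in DTA+ 2). They therefore do not show a lower level of either marker in both DTA+ libraries. *Nr5a1* itself gave 1 or 2 UMIs in every library, too few to check the labels.

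The libraries held 11343 to 12580 cells and 50779551 to 73577028 UMIs. Limits on UMIs, mitochondrial and hemoglobin reads kept 31132 of 47040 cells, from 52.2% in DTA- 1 to 77.7% in DTA+ 2, and 238 barcode sequences occurred in more than 1 library. The kept cells fell into 27 clusters and 24 populations. Populations are called by the class whose markers lead them ("-like") or, where markers named none, by their first 2 leading genes ("-led"). In 21 of them every library had at least 20 cells, and the UMIs of each library were summed and compared between genotypes. Levels are given as CPM, the usual count scaled for library size (with TMM factors between libraries), and fold changes on the log2 scale as DTA+ over DTA- with the standard error (SE) of the fit.

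*Mt2* and *Mt1* lie next to each other on chromosome 8, on the forward strand of GRCm38. *Mt2* (ENSMUSG00000031762) spans 94172664 to 94173568 and *Mt1* (ENSMUSG00000031765) 94179082 to 94180327, with 6418 bp between their starts. *Slc30a1* (ENSMUSG00000037434) is at 191906767 to 191913247 of chromosome 1, *Slc39a14* (ENSMUSG00000022094) at 70303469 to 70351425 of chromosome 14 on the reverse strand, and *Mtf1* (ENSMUSG00000028890) at 124802104 to 124849800 of chromosome 4. The 250 bases before the RefSeq start (GRCm38.p6) are printed for *Mt1*, *Mt2* and *Slc30a1*, the 3 genes that MTF1 is known to induce, at chr8:94178839-94179088, chr8:94172368-94172617 and chr1:191906531-191906780, all on the forward strand. Capitals mark the metal response element core, searched as TGCACNC or TGCGCNC on both strands.

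Mt1: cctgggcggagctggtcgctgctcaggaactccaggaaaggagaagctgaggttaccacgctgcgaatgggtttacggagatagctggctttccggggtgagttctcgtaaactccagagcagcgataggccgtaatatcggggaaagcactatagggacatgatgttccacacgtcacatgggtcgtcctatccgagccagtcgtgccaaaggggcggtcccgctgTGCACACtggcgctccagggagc

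Mt2: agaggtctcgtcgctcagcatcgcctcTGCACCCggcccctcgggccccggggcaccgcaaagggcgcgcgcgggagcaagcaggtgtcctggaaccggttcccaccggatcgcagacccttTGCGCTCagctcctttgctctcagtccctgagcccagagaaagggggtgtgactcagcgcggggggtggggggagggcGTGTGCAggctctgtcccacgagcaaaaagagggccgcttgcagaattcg

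Slc30a1: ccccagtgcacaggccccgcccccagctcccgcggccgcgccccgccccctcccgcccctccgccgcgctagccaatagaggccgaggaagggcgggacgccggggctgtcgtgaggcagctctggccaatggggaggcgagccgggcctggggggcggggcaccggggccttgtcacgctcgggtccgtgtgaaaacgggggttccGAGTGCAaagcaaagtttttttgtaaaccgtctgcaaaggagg

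The *Mt2* stretch held 3 matches, which began 223, 128 and 50 bases before the start. Of 26734 promoters of the same length, 21.4% held at least 1 match and 1.29% at least 3. The *Mt1* and *Slc30a1* stretches held 1 match each, beginning 23 and 43 bases before the start. These positions depend on the annotated start: GENCODE also gives *Mt1* transcripts that begin at 94179211 and 94179241, and 2 further matches, at 94179091 and 94179109, lie just after the RefSeq start and before both of those. The first GENCODE start of *Mt2*, 94172664, lies after its RefSeq start and puts the 3 matches 269, 174 and 96 bases before it, with a further one 42 bases before it. *Slc30a1* had a further match beginning 31 bases into the transcript from the RefSeq start. The *Mtf1* stretch held none. The antioxidant response element core TGACNNNGC, present in 10.2% of promoters, had 1 match in *Mt2* and 1 in *Slc30a1*. A full palindromic glucocorticoid response element occurred in only 1 promoter of all, so its absence from the 4 stretches carries little information. Imperfect elements and bases further upstream were not searched. The search also ended soon after the RefSeq start, short of both later *Mt1* starts, so the bases directly before those were left out. The E-box CACGTG, present in 6.06%, was in none of the 4. *Slc39a14* was not searched.

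Over all kept cells, both metallothioneins were lower in the DTA+ penises. *Mt1* stood at 79.4 and 176 CPM in DTA- 1 and 2 and at 40.3 and 20.1 CPM in DTA+ 1 and 2. Both DTA+ libraries lay below both DTA- libraries, but the DTA- libraries also differed from each other. The log2 fold change was -2.08 (SE 0.45), and it was -1.40 without DTA- 2 and -2.67 without DTA+ 1. *Mt2* went from 12.0 and 29.4 CPM to 4.91 and 1.83 CPM, a log2 fold change of -2.63 (SE 0.56) with the same order of libraries; it was -1.85 without DTA- 2 and -3.50 without DTA+ 1. With no upper limit on UMIs per cell the values were -1.30 for *Mt1* and -1.50 for *Mt2*. In such sums over all cells, fewer cells of a type and less RNA per cell cannot be told apart.

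Of the transporters, *Slc30a1* was somewhat higher in the DTA+ libraries over all cells, while *Slc39a14* and the regulator *Mtf1* showed little or no difference. The exporter *Slc30a1* stood at 4.43 and 4.39 CPM in the DTA- libraries and at 6.59 and 6.28 CPM in the DTA+ libraries, a log2 fold change of 0.54 (SE 0.18) with no overlap. The importer *Slc39a14* (12.1 and 13.7 against 13.5 and 13.1 CPM) and *Mtf1* (12.5 and 12.9 against 13.5 and 12.8 CPM) overlapped, with log2 fold changes of 0.04 (SE 0.15) and 0.05 (SE 0.14). None of the 5 genes passed an adjusted p of 0.05 over all cells (quasi-likelihood test of edgeR, adjusted over all genes by Benjamini-Hochberg), where 0.225% of 15977 genes passed as lower and 0.263% as higher. Both metallothioneins passed as lower with the replicate number as a block (log2 fold changes of -2.05 and -2.60) and with crossed numbers. They also passed by the likelihood ratio test, with no filter and with thinned cells. Neither passed by DESeq2, with the upper UMI limit lifted or with the highest doublet scores left out. Such passes describe the fits and are not a test, since both genes were chosen on this contrast. Nothing ties the replicate numbers across genotypes, and the crossed numbers were added after seeing the data. Samples did not overlap for 24.1% of the 15977 genes in the lower and 24.7% in the higher direction.

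The populations differed in how much *Mt1* they held. In the DTA- penises the highest mean was in macrophage-like cells, at 614 ± 217 CPM (SD, n = 2). Pericyte-like cells followed at 389 ± 30.4, then general prepuce-like (352 ± 48.8), subdermal prepuce-like (341 ± 137), *Cma1/S100a9*-led (269 ± 116; mast cell and macrophage markers), epithelium-like (250 ± 84.3) and *Thbd/Ptgis*-led cells (224 ± 110). Among these 7, only the macrophage-like cells had both libraries above those of the next population. *Sostdc1/Wnt16*-led (144 ± 99.3) and neural-like cells (109 ± 25.8) were intermediate.

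The remaining populations had lower means, among them periurethra-like, distal glans-like and corpus cavernosum-like cells. *Mt1* stood at 63.8 ± 10.1 CPM in red blood cell-like, 63.2 ± 53.2 in *Nefl/Kera*-led, 41.8 ± 24.6 in proliferative-like and 32.9 ± 2.56 in periurethra-like cells. Lower still were distal glans-like (25.2 ± 2.50), corpus cavernosum-like (23.4 ± 8.29), endothelium-like (20.7 ± 15.9), *Coch/Meox2*-led (17.5 ± 4.08), *Col9a1/Col9a3*-led (13.5 ± 19.1), *Dsc3/Rprm*-led (12.5 ± 5.99) and osteogenic-like cells (11 ± 2.98). The lowest mean was in *Hand2os1/Prss35*-led cells, at 4.88 ± 4.01 CPM. Of the 20 pairs of neighbours in this order, 16 overlapped in their libraries.

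*Mt2* was highest in epithelium-like cells of DTA- penises (70.0 ± 34.8 CPM, SD, n = 2). It was next in general prepuce-like (52.1 ± 8.32), *Sostdc1/Wnt16*-led (42.1 ± 30.2) and subdermal prepuce-like cells (40.9 ± 22.9), and no UMI was counted in either DTA- library in *Cma1/S100a9*-led or *Col9a1/Col9a3*-led cells. All 20 pairs of neighbours in the *Mt2* order overlapped. Across the 42 points of 21 populations and 2 DTA- libraries, *Mt2* and *Mt1* correlated with r = 0.81, and with r = 0.84 over the 84 points of both genotypes; points of a library share its depth, and points of a population its cells. Over the DTA- points the genes most like *Mt2* outside the 5, of 6534 averaging 20 CPM or more, were *Tmem131* (r = 0.73), *Tgfbr3* (0.70), *Nr2f2* (0.69) and *Lbh* (0.69), and over all points *Gltp* (0.64), *Msmo1* (0.60) and *Idi1* (0.59). For *Slc39a14* the most alike over all points were *Prrc1* (0.57), *Oaf* (0.56) and *Fkbp14* (0.54), weak values in sparse counts.

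**Figure D1:**
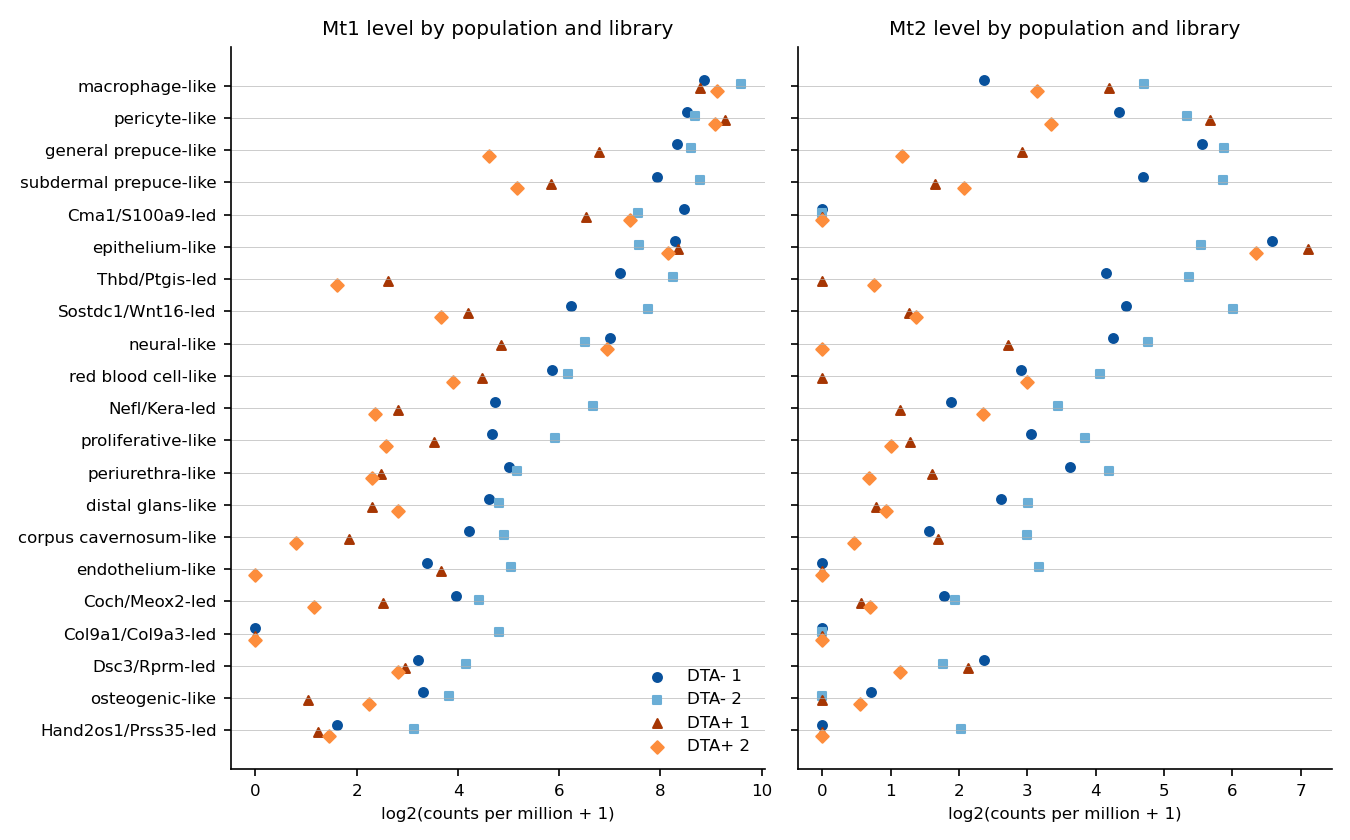
Level of *Mt1* (left) and *Mt2* (right) in each of 21 populations, as log2(CPM + 1) on the horizontal axis, with 1 point per library (blue, DTA- 1 and 2; orange, DTA+ 1 and 2). Populations are ordered by mean *Mt1* in DTA- penises; the blue points lie to the right of the orange ones in 15 populations for *Mt1*, overlap them in 5, among these macrophage-like, epithelium-like and neural-like cells, and lie to the left in pericyte-like cells.

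Within populations, *Mt1* was lower in DTA+ cells in 15 of 21 populations, *Cma1/S100a9*-led cells among them. It passed as lower in 11 of the 17 populations in which it was tested and as higher in 0, and *Mt2* passed as lower in 7 of 9 and as higher in 0. Over all 164092 tested gene-population pairs, 1.67% passed as lower and 1.59% as higher. Among the 11 populations the share of all tested genes that passed as lower was 7.33% in *Thbd/Ptgis*-led, 4.78% in *Coch/Meox2*-led, 3.43% in corpus cavernosum-like, 2.37% in distal glans-like, 2.1% in periurethra-like, 2.03% in subdermal prepuce-like and 1.23% in *Sostdc1/Wnt16*-led cells. In *Nefl/Kera*-led (0.575%), general prepuce-like (0.444%), proliferative-like (0.271%) and red blood cell-like cells (0.155%) few genes passed at all. These counts are not read as a result, since the genes were chosen on this contrast. A gene could also enter the test through its DTA- libraries alone. In 6 of the 7 populations where *Mt2* passed, the DTA+ libraries held 0 to 5 of its UMIs each. Both libraries of DTA+ lay below both of DTA- in 15 of 21 populations for *Mt1* and 9 of 21 for *Mt2*, populations without a test included. Over tested gene-population pairs only, an unlike set, the share was 21.5% in this direction and 21.9% in the other. DESeq2 passed *Mt1* in 4 populations, and with every cell thinned to 1000 UMIs *Mt1* passed in 7 and *Mt2* in 1.

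The widest gap was in *Thbd/Ptgis*-led cells, which express *Dpt*, *Cd34* and *Cd248* but were not given a class. *Mt1* stood at 146 and 302 CPM (305 and 482 UMIs) in the DTA- libraries and at 5.11 and 2.05 CPM (6 and 3 UMIs) in the DTA+ libraries, a log2 fold change of -5.99 (SE 0.39). For *Mt2* these cells gave 35 and 64 UMIs in the DTA- libraries and 0 and 1 in the DTA+ libraries. With 1 UMI in the DTA+ group, the ratio of DTA- to DTA+ was 71.0 with a 95% exact counting interval from 12.4 to 2832. The 4 libraries held similar numbers of these cells, 430 and 387 in DTA- and 408 and 423 in DTA+.

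Subdermal and general prepuce-like cells had higher mean *Mt1* than *Thbd/Ptgis*-led cells in DTA- penises, and smaller folds. The DTA- libraries of the subdermal prepuce-like cells overlapped those of the *Thbd/Ptgis*-led cells. In subdermal prepuce-like cells *Mt1* went from 244 and 438 CPM to 56.6 and 35.1 CPM (log2 fold change -2.91, SE 0.30) and *Mt2* from 24.8 and 57.1 CPM to 2.15 and 3.19 CPM (-3.96, SE 0.53). General prepuce-like cells had *Mt1* at 318 and 387 CPM in DTA- and 110 and 23.4 CPM in DTA+ libraries (-2.33, SE 0.41), so here the DTA+ libraries differed widely from each other. *Mt2* in the same cells went from 46.3 and 58.0 CPM to 6.54 and 1.23 CPM (-3.46, SE 0.37). *Sostdc1/Wnt16*-led cells had *Mt1* at 74 and 214 CPM against 17.4 and 11.6 CPM (-3.33, SE 0.41) and *Mt2* at 20.8 and 63.4 CPM against 1.42 and 1.57 CPM (-4.81, SE 0.58). In all 3 populations no DTA+ library reached a DTA- library for either gene.

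The genotypes were spread differently over the clusters of subdermal prepuce. The marker *Akap12* led 3 clusters, and the *Iyd/C130073E24Rik*-led one held too few DTA- cells to be tested (2 and 7). With the 3 clusters pooled, a choice made after seeing the data, *Mt1* stood at 217 and 447 CPM in DTA- and at 27.8 and 23.7 CPM in DTA+ libraries (log2 fold change -3.70, SE 0.32) and *Mt2* at 21.5 and 58.1 against 1.00 and 1.46 CPM (-5.01, SE 0.56); 2.34% of genes passed as lower in the pool. The gap between the genotypes was no narrower in the pool than in its named cluster.

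In periurethra-like, distal glans-like and corpus cavernosum-like cells the DTA- levels of *Mt1* were below those of red blood cell-like cells (56.7 and 71.0 CPM), and the part of free RNA in them was not tested. Periurethra-like cells, the mesenchyme around the urethra, had *Mt1* at 31.1 and 34.7 CPM against 4.59 and 3.92 CPM (log2 fold change -2.96, SE 0.28) and *Mt2* at 11.3 and 17.3 against 2.04 and 0.603 CPM (-3.56, SE 0.55). Distal glans-like cells had *Mt1* at 23.4 and 26.9 against 3.96 and 6.02 CPM (-2.24, SE 0.25), and *Mt2* at 5.14 and 7.02 against 0.719 and 0.913 CPM (-2.77, SE 0.53). In corpus cavernosum-like cells *Mt1* went from 17.5 and 29.3 to 2.59 and 0.750 CPM (-3.76, SE 0.46). These DTA+ levels rest on few molecules, 2 to 33 *Mt1* UMIs a library. *Mt1* also passed in proliferative-like (-2.45, SE 0.43), *Nefl/Kera*-led (-3.63, SE 0.59) and *Coch/Meox2*-led cells (-2.42, SE 0.43), and *Mt2* in proliferative-like cells (-3.07, SE 0.56). The DTA- means of *Mt1* in these populations were 41.8, 63.2 and 17.5 CPM in that order. Red blood cell-like cells had a mean of 63.8 CPM, and only the *Coch/Meox2*-led libraries lay wholly below theirs. The part of free RNA in these populations was not tested either.

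The 11th population was red blood cell-like, with *Mt1* at 56.7 and 71.0 CPM in DTA- and 21.2 and 13.9 CPM in DTA+ libraries. In these cells *Mt1* gave 3.55, 2.75, 1.08 and 1.01 UMIs per 100 UMIs of the fibroblast collagen *Col3a1* in DTA- 1, DTA- 2, DTA+ 1 and DTA+ 2. In all other cells the same ratios were 2.52, 3.13, 1.19 and 0.852, and the red cell value is not read as expression by those cells. In macrophage-like cells the ratio was 296 to 522 in the 4 libraries, far from that of the other cells.

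In 6 populations *Mt1* was tested and did not pass. Epithelium-like cells had 310 and 191 CPM against 326 and 284 CPM (log2 fold change 0.28, SE 0.28), and *Mt2* there was at 94.5 and 45.4 against 137 and 80.2 CPM (0.64, SE 0.39). Macrophage-like cells had 460 and 767 against 441 and 551 CPM (-0.31, SE 0.26). In pericyte-like cells *Mt1* was at 367 and 410 CPM in DTA- and at 621 and 541 CPM in DTA+ libraries (0.57, SE 0.23), the 1 population in which both DTA+ libraries were the higher. The others were *Cma1/S100a9*-led (351 and 187 against 91.8 and 169 CPM), neural-like (127 and 90.3 against 27.9 and 121 CPM) and osteogenic-like cells (8.93 and 13.1 against 1.06 and 3.71 CPM). Several of these populations are small, with 21 to 73 pericyte-like cells a library, and a missed threshold does not show that the genotypes were alike.

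**Figure D2:**
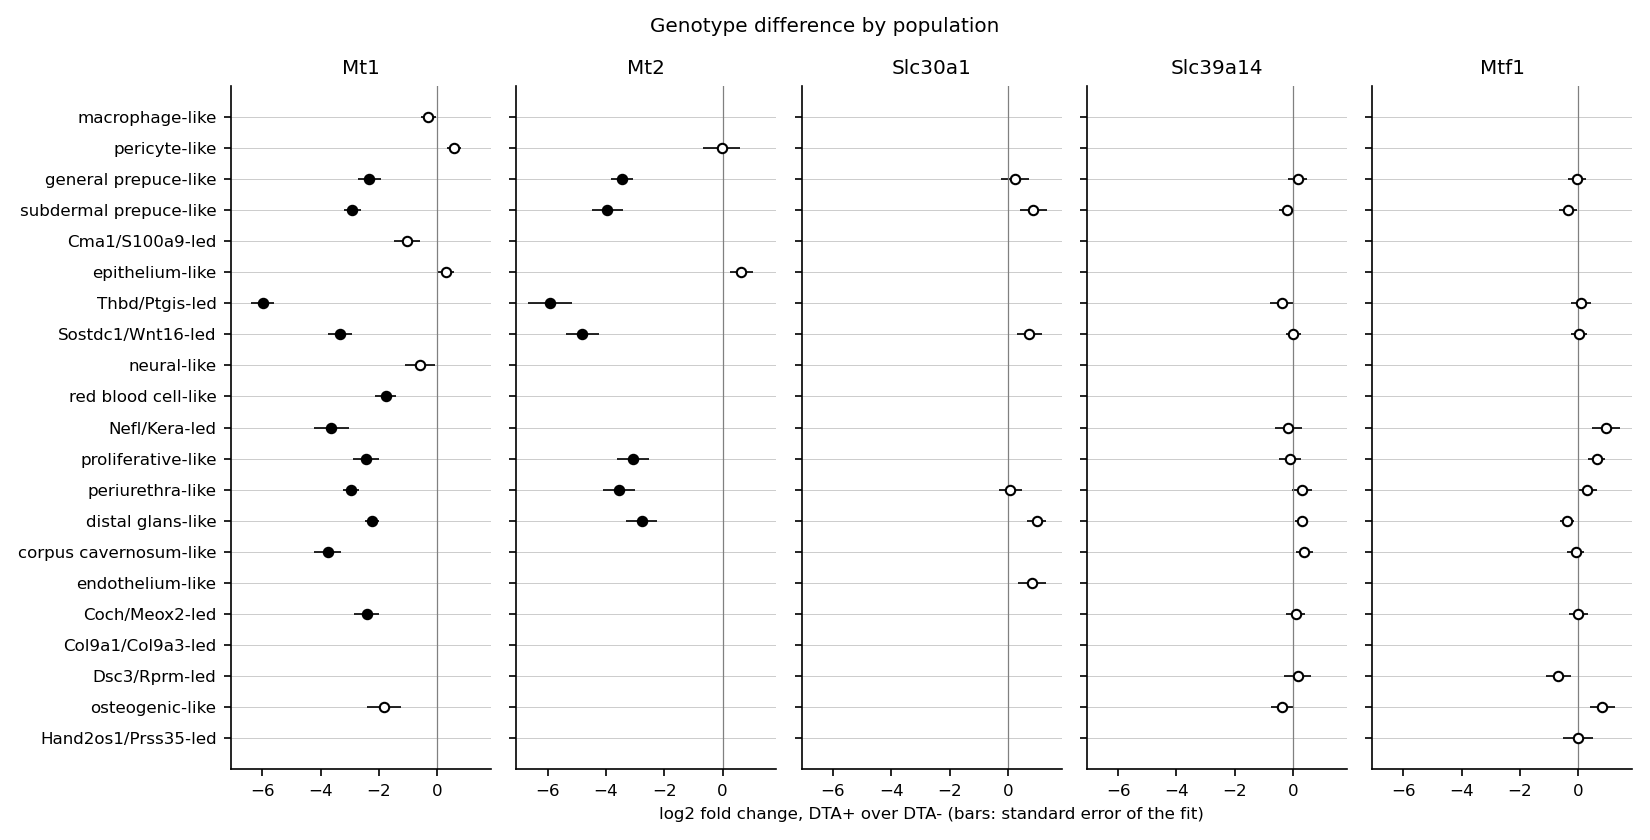
Log2 fold change, DTA+ over DTA-, of each of the 5 genes in the populations where it was tested, with the SE of the fit as bars; filled points passed an adjusted p of 0.05. Filled points are all left of 0, 11 for *Mt1* and 7 for *Mt2*, and none occurs for *Slc30a1*, *Slc39a14* or *Mtf1*. The genes were chosen on this contrast, so filled points are a description and not a test.

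The share of cells in which a metallothionein was seen was also lower in the DTA+ libraries. With every kept cell thinned to 1000 UMIs, an *Mt1* UMI was found in 4.88% and 10.4% of cells in DTA- 1 and 2 and in 2.35% and 1.48% in DTA+ 1 and 2, with exact binomial 95% intervals of 4.38 to 5.43, 9.71 to 11.1, 2.03 to 2.71 and 1.23 to 1.75% that cover counting error only. For *Mt2* the shares were 1.05% and 2.13% against 0.394% and 0.182%. Unthinned, the means were 19.5% against 4.78% of cells for *Mt1* and 5.65% against 0.858% for *Mt2*, but the kept cells were deeper in DTA- (medians of 4700 and 4077 UMIs) than in DTA+ libraries (3551 and 3560). In thinned subdermal prepuce-like cells, 17.3% and 26.5% of DTA- cells had an *Mt1* UMI, against 3.86% and 3.60% of DTA+ cells. In *Hand2os1/Prss35*-led cells, the population with the lowest level, the share was 1.55% in DTA- 2 and 0 in the others, where counts of 0 end the exact 95% interval at 2.95% in DTA- 1, 1.66% in DTA+ 1 and 1.16% in DTA+ 2 (3 counts would be 2.44%, 1.36% and 0.952% of the cells).

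Among thinned cells with any *Mt1* UMI, the mean number was 1.47 and 1.43 in DTA- and 1.31 and 1.35 in DTA+ libraries. *Mt1* molecules were concentrated in few cells: at full depth, 1.86% and 4.23% of DTA- cells and 0.80% and 0.613% of DTA+ cells held 50% of them. Subdermal and general prepuce-like cells together gave the most *Mt1* UMIs in the DTA- libraries, 20.4% and 33.1% from the first and 22.3% and 19.4% from the second. In DTA+ penises pericyte-like cells gave 17.3% and 16.8% of the *Mt1* UMIs, against 1.61% and 2.39% in DTA- penises, macrophage-like cells 10.4% and 20.1% against 4.69% and 3.77%, and epithelium-like cells 14.2% and 13.1% against 4.99% and 1.11%. Of the DTA+ *Mt1* UMIs, subdermal prepuce-like cells gave 6.46% and 7.83%, and general prepuce-like cells 34.3% in DTA+ 1, more than in either DTA- library, but 5.41% in DTA+ 2. General prepuce-like cells were 10.0% and 3.62% of kept cells in DTA+ 1 and 2, against 4.97% and 8.75% in DTA- 1 and 2. Subdermal prepuce-like cells were 3.95% and 4.10% against 5.80% and 11.7%. Such shares of UMIs mix cell numbers with the level per cell.

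**Figure D3:**
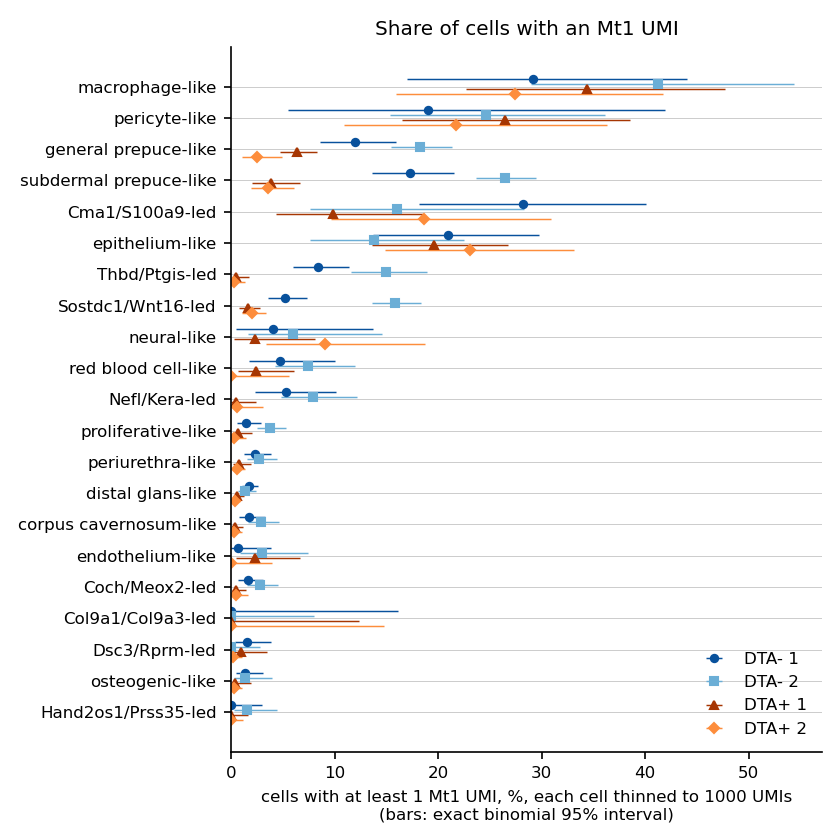
Percentage of cells with at least 1 *Mt1* UMI after each cell was thinned to 1000 UMIs, by population and library, with exact binomial 95% intervals. In subdermal prepuce-like cells the DTA- libraries sit at 17.3% and 26.5% and the DTA+ libraries at 3.86% and 3.60%, while in pericyte-like and epithelium-like cells the 4 intervals overlap.

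The zinc exporter *Slc30a1* had log2 fold changes above 0 in the populations where it passed the filter on low counts, and none passed the test. It passed the filter on low counts in 6 populations and passed as changed in 0. The 6 log2 fold changes ran from 0.09 to 0.99. A gene could pass the filter through its DTA+ libraries alone, so the shared sign carries little information. Fits with 1 library left out let the gene in elsewhere. There the log2 fold changes were -0.83 to -0.18 in *Thbd/Ptgis*-led and -0.07 in corpus cavernosum-like cells. They were 0.35 in *Coch/Meox2*-led, 0.52 in proliferative-like and 1.00 to 1.25 in osteogenic-like cells. In 9 of 21 populations, tested or not, both DTA+ libraries were the higher. Over tested gene-population pairs only, an unlike set, this share was 21.9%. The libraries overlapped in the other 12 populations. Among these the DTA+ mean was the lower in some, such as macrophage-like (26.6 to 23.6 CPM) and pericyte-like cells (11.2 to 6.71 CPM), where the gene was not tested. Distal glans-like cells had 3.97 and 5.07 CPM in DTA- and 9.35 and 8.40 CPM in DTA+ libraries (0.99, SE 0.33). In subdermal prepuce-like cells the values were 4.05 and 3.98 against 5.73 and 8.93 CPM (0.88, SE 0.45), and in endothelium-like cells 14.2 and 21.3 against 37.2 and 25.6 CPM (0.84, SE 0.48). A library gave 6 to 46 UMIs of the gene in these 3 populations. The highest DTA- mean was in macrophage-like cells, at 26.6 ± 8.27 CPM (SD, n = 2), and 18 of the 20 pairs of neighbours in the order overlapped.

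*Slc39a14* and *Mtf1* varied around 0 between the genotypes. *Slc39a14* was tested in 12 populations, with log2 fold changes from -0.38 to 0.38, and passed in 0. Its highest DTA- mean among the tested populations was in osteogenic-like cells, at 14.7 and 35.0 CPM, followed by subdermal prepuce-like cells at 19.2 and 19.4 CPM. *Mtf1* was tested in 13 populations, with log2 fold changes from -0.68 to 0.95, and passed in 0. Its DTA- means ranged from 5.74 to 21.9 CPM over the 21 populations, a narrower range than the 4.88 to 614 CPM of *Mt1*. For both genes 19 of the 20 pairs of neighbours in the DTA- order overlapped.

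A list of 24 further zinc genes, the other metallothioneins *Mt3* and *Mt4* and the SLC30 and SLC39 transporters, was examined beside them. Over all cells 17 were tested, 0 passed as lower and 0 as higher with edgeR's quasi-likelihood test (p adjusted over all genes), 1 (*Mt3*, lower) had an unadjusted p under 0.05 and DESeq2 passed the same 1, and their median log2 fold change was -0.03, against -0.0027 for all features. Within populations, where 1.67% of all pairs passed as lower and 1.59% as higher, 0 of 182 pairs passed as lower and 1 as higher. That pair was the importer *Slc39a10* in *Thbd/Ptgis*-led cells, at 33.6 and 38.8 CPM in DTA- and 75.8 and 65.6 CPM in DTA+ libraries (log2 fold change 0.97, SE 0.21, adjusted p = 0.00259 in edgeR), the same cells in which the metallothioneins showed the widest gap. It passed without DTA- 1, DTA- 2 or DTA+ 2 in turn, and not without DTA+ 1 or with DESeq2.

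*Mt3*, the metallothionein best known from the brain, had the lowest log2 fold change of the list. It stood at 0.839 and 3.55 CPM (25 and 114 UMIs) in DTA- libraries and at 0.231 and 0.172 CPM (7 and 6 UMIs) in DTA+ libraries, a log2 fold change of -3.44 (SE 0.77). Its adjusted p was 0.123 in edgeR's quasi-likelihood test and 0.00182 in DESeq2. It passed without DTA- 1 and without DTA+ 1, and not without DTA- 2 or without DTA+ 2. Of the 114 UMIs in DTA- 2, 47 were in *Sostdc1/Wnt16*-led and 37 in general prepuce-like cells, and in *Thbd/Ptgis*-led cells no library had an *Mt3* UMI.

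**Figure D4:**
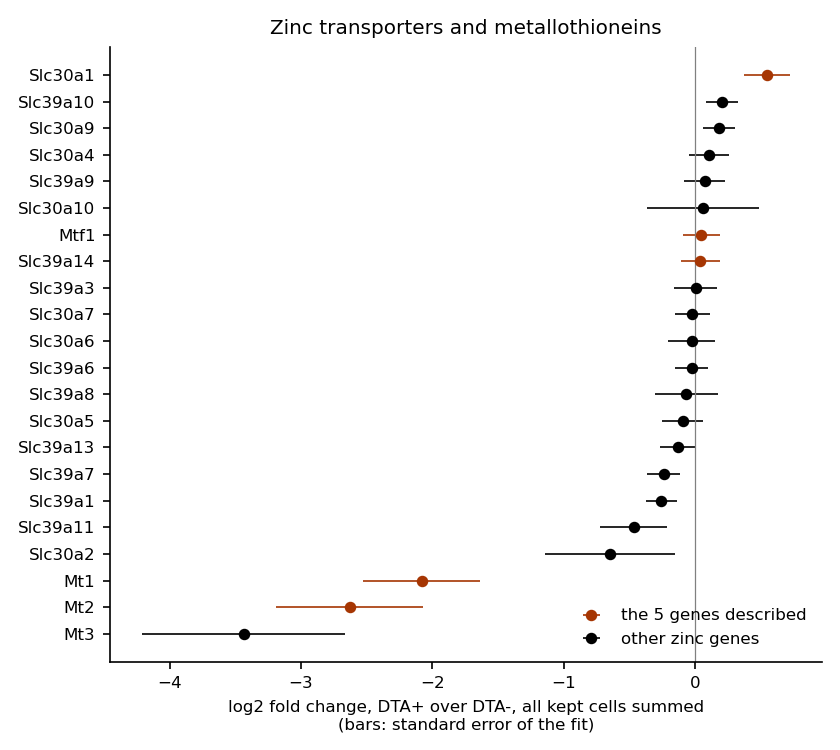
Log2 fold change, DTA+ over DTA-, over all kept cells for the 22 metallothionein, zinc transporter and *Mtf1* genes that were tested, with the SE of the fit as bars; the 5 genes described are in orange. The 3 metallothioneins lie at -2.08, -2.63 and -3.44, and *Slc30a1*, at 0.54, is the highest of the others.

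The neighbours of *Mt1* and *Mt2* on chromosome 8 mostly showed small differences. Within 200 kb of the pair lie 13 other genes, 7 of which were tested over all cells and 0 of which passed (edgeR, adjusted over all genes); *Mt3* and *Nup93* had an unadjusted p under 0.05. Without *Mt3*, the other 6 had log2 fold changes from -0.54 (*Nup93*) to 0.19 (*Bbs2*). In populations, 1 of 69 pairs passed as lower, against 1.67% of all pairs. It was *Nup93* in periurethra-like cells, at 19.0 and 16.9 against 8.16 and 7.84 CPM (adjusted p = 0.0477 in edgeR's quasi-likelihood test). The antisense gene *Gm45774* overlaps *Mt2* and gave 0 to 0.156 CPM over all cells.

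Other lists connected with metals were compared in the same fits. Of 11 genes of metal and oxidative stress, such as heme oxygenase *Hmox1* and the ferritins *Fth1* and *Ftl1*, 0 passed over all cells in edgeR. In that fit 1 lower (*Ftl1*) and 1 higher (*Slc40a1*) had an unadjusted p under 0.05. The median log2 fold change was -0.24 against -0.0027 for all features. Within populations, where 1.67% of all pairs passed as lower, 4 of 145 pairs of the list passed, all lower. They were *Fth1* in subdermal prepuce-like cells, *Ftl1* and the glutathione enzyme *Gclc* in *Thbd/Ptgis*-led cells, and the thioredoxin reductase *Txnrd1* in *Coch/Meox2*-led cells. Of 8 copper genes, 0 passed over all cells in edgeR and 0 had an unadjusted p under 0.05 (median -0.23). Within populations, 2 of 129 pairs passed, both as lower, against 1.67% of all pairs. Both were of the copper chaperone *Atox1*, in corpus cavernosum-like (log2 fold change -0.55, SE 0.14) and *Thbd/Ptgis*-led cells (-0.50, SE 0.17).

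Genes commonly induced by glucocorticoids were lower in DTA+ cells of many populations. Of 8 such genes 1 passed over all cells, *Fkbp5*, a co-chaperone of the glucocorticoid receptor, and 31 of 106 pairs passed as lower and 3 as higher within populations, against 1.67% and 1.59% of all pairs; the list was chosen with such results known. Passes of these genes therefore describe the fits and are not a test. The list's median log2 fold change over all cells was -0.76, against -0.0027 for all features. In *Thbd/Ptgis*-led cells *Errfi1*, an inhibitor of the EGF receptor, stood at 112 and 142 CPM against 21.3 and 21.9 CPM (log2 fold change -2.55, SE 0.23). The transcription factor *Klf9* stood there at 93.2 and 173 against 14.5 and 25.3 CPM (-2.69, SE 0.28). *Fkbp5* also passed as lower in *Dsc3/Rprm*-led, osteogenic-like and *Hand2os1/Prss35*-led cells, where *Mt1* did not pass or was not tested. The kinase *Sgk1* passed as lower in subdermal prepuce-like and *Sostdc1/Wnt16*-led cells and as higher in distal glans-like, corpus cavernosum-like and *Hand2os1/Prss35*-led cells. The part of glucocorticoids in any of these differences was not tested.

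Genes induced by tissue dissociation did not divide the genotypes over all cells. Of 10 such genes, 0 passed in edgeR and 0 had an unadjusted p under 0.05, and *Fos*, an immediate early gene, stood at 1807 and 4615 CPM in DTA- and 4240 and 3775 CPM in DTA+ libraries. DTA- 1, the lower of the DTA- libraries for *Mt1*, was also the lowest for *Fos*. Within populations, 11 of 191 pairs of this list passed as lower and 6 as higher, against 1.67% and 1.59% of all pairs. Both are larger shares than among all pairs. Over all cells, the summed level of 8 smooth muscle markers was 264 and 419 CPM in DTA- and 197 and 139 CPM in DTA+ libraries, of 8 pericyte markers 352 and 398 against 317 and 290 CPM, and of 9 macrophage markers 260 and 250 against 259 and 220 CPM; in each list no marker was at 0. The part of these differences in the all-cell values of *Mt1* was not tested. Smooth muscle-like cells themselves, with 23 and 4 cells in the DTA+ libraries, were not tested; their DTA- libraries held *Mt1* at 156 and 314 CPM.

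Among the cells that the limits removed, the genotypes differed less in metallothioneins. Above the limit of 7500 UMIs were 6046 cells, in which *Mt1* stood at 110 and 154 CPM in DTA- and 142 and 67.6 CPM in DTA+ libraries (log2 fold change -0.33, SE 0.35), with overlap, and *Mt2* at 17.7 and 21.4 against 23.5 and 8.76 CPM (-0.27, SE 0.42). These sums rest on 941 to 3446 *Mt1* UMIs a library. *Slc30a1* in the same cells was at 6.91 and 8.03 against 11.2 and 9.41 CPM (0.47, SE 0.20), close to its value in kept cells. In 6056 cells above the hemoglobin limits *Mt1* was at 82.4 and 64.1 against 47.8 and 54.6 CPM (-0.52, SE 0.29), without overlap, and *Mt2* at 10.3 and 9.99 against 8.11 and 11.5 CPM (-0.08, SE 0.32), with overlap. The part of free RNA in the cells above the hemoglobin limits was not tested. Of the cells above the UMI limit, DTA- 1 held 2513, DTA- 2 1286, DTA+ 1 1130 and DTA+ 2 1117, and their spread over cell types is not given here. Both sets of removed cells were compared after the data were seen. With the cells above the UMI limit added to the clusters nearest to them, *Mt1* passed as lower in 9 and *Mt2* in 7 populations.

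**Figure D5:**
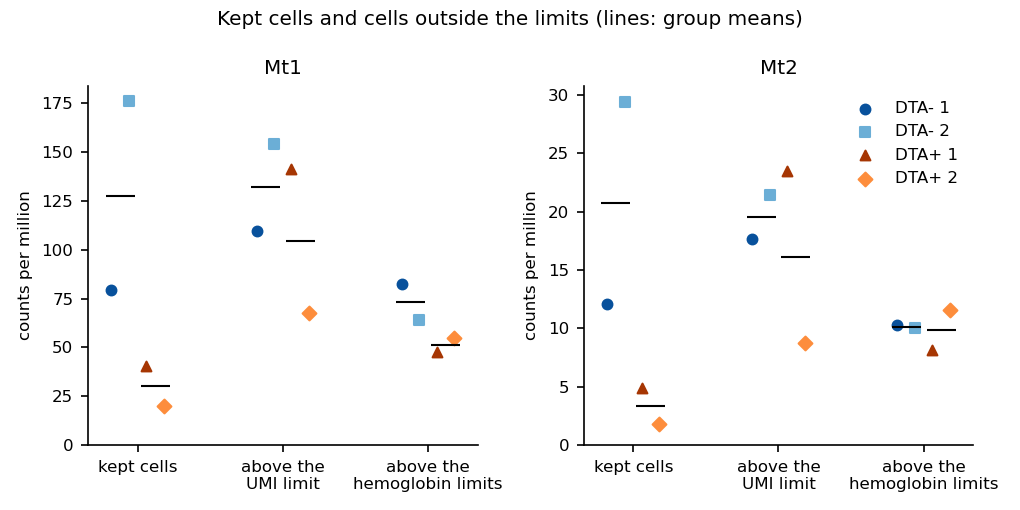
CPM of *Mt1* (left) and *Mt2* (right) in kept cells, in cells above the UMI limit and in cells above the hemoglobin limits, with 1 point per library and a line at each group's mean. In kept cells the DTA+ points (40.3 and 20.1 CPM for *Mt1*) lie below both DTA- points, whereas above the UMI limit the DTA+ points, at 142 and 67.6 CPM, overlap the DTA- points at 110 and 154 CPM.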

How the data were processed

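Single-cell suspensions of male E16.5 penises, 2 DTA- and 2 DTA+, were run on the 10x 3' platform and sequenced together. The deposited values are raw UMI counts per gene and cell, which the authors made with Cell Ranger (version 4.0.0 per the labels' processing notes) on mm10 with reporter sequences added. Kept cells had a UMI total between 1000 and 7500, with mitochondrial reads up to 25%, alpha globin up to 25% and beta globin up to 50%. Clustering (Seurat 5.3.0; 2000 variable genes without the zinc genes, 30 components, resolution 0.8) gave populations named from marker lists. Doublets were scored with Scrublet, which called 1, 0, 1 and 0 cells by itself and so did not work; leaving out the 662 to 799 highest scores per library was an alternative. Counts were summed per library and population (at least 20 cells in each) and tested with edgeR 4.0.16 (quasi-likelihood, TMM, filterByExpr, Benjamini-Hochberg over all genes, threshold 0.05) under R 4.3.3. Alternatives are given in the closing section. The members and lists were chosen with earlier results of these data known. Named by rule were the list genes that passed in a population and the genes most alike by Pearson correlation; other genes (examples of lists, markers, checks and neighbours on chromosome 8) were chosen after their values were seen. Intervals cover counting error only. The scripts were tested on simulated data.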

Additional observations from a re-analysis of the deposited data

Results flagged for a closer look

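In 6 cases both DTA+ libraries moved away from both DTA- libraries in the direction opposite to that of the same gene in another population, where the libraries did not overlap either. The difference between populations was not tested in any of them. *Mt1* had a log2 fold change (DTA+ over DTA-) of 0.57 in pericyte-like cells, against values below 0 in the 15 populations where both DTA+ libraries were the lower. *Slc39a14* had 0.38 in corpus cavernosum-like and 0.30 in distal glans-like cells, with both DTA+ libraries lower in 5 populations. *Mtf1* had -0.38 in distal glans-like, -0.68 in *Dsc3/Rprm*-led and -0.34 in subdermal prepuce-like cells, with both DTA+ libraries higher in 4 populations. With 2 libraries a genotype, 21.5% of all tested gene-population pairs had no overlap in the lower and 21.9% in the higher direction. The counts of populations given here also include those in which the gene was not tested.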

How the results depend on the processing

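*Mt1* passed in 4 populations with DESeq2 and 7 with thinned cells instead of 11, and *Mt2* in 1 with thinned cells instead of 7. Over the named populations alone, *Mt1* passed in 3 at resolution 0.4 and 4 at resolution 1.2 instead of 7, and *Mt2* in 2 at resolution 0.4 instead of 5. Lifting the UMI limit gave log2 fold changes over all cells of -1.30 for *Mt1* and -1.50 for *Mt2*, and unthinned cells gave shares of 19.5% and 4.78% for *Mt1* and 5.65% and 0.858% for *Mt2*. Of the zinc list, 1 gene (*Mt3*) passed over all cells with DESeq2, the likelihood ratio test, no filter, the replicate block and the crossed replicate block. Its pairs passing as higher went to 0 with DESeq2, and those passing as lower to 2 without the filter, 2 with the UMI limit lifted and 1 with the crossed block. Leaving out 1 library in turn gave 8 to 10 populations for *Mt1*, 6 to 8 for *Mt2*, log2 fold changes over all cells from -2.67 to -1.40 and from -3.50 to -1.85, and for the zinc list 0 to 2 pairs higher, 1 to 2 lower and 0 to 1 genes over all cells. The causes were not tested, and passes of *Mt1* and *Mt2* only describe the fits, since both genes were chosen on this contrast. Over the 13 settings that kept the same clusters, *Mt1* and *Mt2* were lower wherever tested in the 11 and 7 populations where they passed, and each passed wherever tested in 4: periurethra-like, subdermal prepuce-like, *Sostdc1/Wnt16*-led and *Thbd/Ptgis*-led.

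Samples of the 2 genotypes share only a replicate number, and the deviations of same-numbered samples correlated at -0.33 over all cells. With the number as a block, both passed over all cells (log2 fold changes of -2.05 and -2.60), and *Mt1* passed in 12 and *Mt2* in 7 populations. With crossed numbers, added after seeing the data, they passed in 10 and 7. Low counts limit *Slc30a1*, *Mt2* and *Mt3*, which passed the filter in few or no populations.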
